A study of Ovis aries with 6 samples.

Results

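Small RNA libraries from the longissimus muscle of sheep, the long muscle of the back, list 2 arms for each hairpin that was predicted from the reads. The loci described here are the arms called star in hairpins that carry no known miRNA name. They were chosen by name alone: every row named by a chromosome and a number, ending in star, with no known miRNA attached and of any length. Of the 11161 rows of the count table, 3836 met this rule, beside 3662 unnamed mature arms, 202 star arms and 376 mature arms of predicted hairpins that carry a known name, and 3085 rows of known miRNAs. A row name gives the chromosome and a running number, so no start, end or neighbouring gene is given for a locus here.

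A miRNA gene is transcribed as a hairpin, from which Dicer cuts a short duplex of both arms. One strand is loaded into an Argonaute protein and guides it to messenger RNAs through its seed, the bases 2 to 8 from the 5′ end, while the other strand, the star, is usually degraded. Small RNA libraries also catch pieces of ribosomal and transfer RNA, and a prediction from reads and a fold can take such a piece for an arm.

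The study compared 2 breeds with 3 libraries each, the Qianhua Mutton Merino (QHMM) as 1 group and the Small Tail Han (STH) as the other, and the labels give neither age nor sex nor a batch. The animals were kept under natural conditions, and the labels name no treatment. The labels do not say that the libraries of a breed came from separate animals, so a p-value here reflects how far these libraries spread, which may be technical variation. The test of arm by breed is an exception, since its error was largely pooled over hairpins. Library totals over all rows ranged from 8062231 to 10276427 counts in QHMM and from 8681817 to 11282332 in STH. All 6 skeletal muscle miRNAs on the marker list were present and made up 274294 to 316439 counts per 1000000 counts of the library (CPM) in QHMM and 265274 to 308181 in STH. The summed blood miRNAs ranged from 13771 to 61885 CPM in QHMM, with the highest value in QHMM replicate 3, and from 5426 to 9839 in STH. Vessel miRNAs summed to 35262 to 52983 CPM in QHMM and 47826 to 62727 in STH, epithelial ones to at most 24.6 CPM in any library, and liver and neuron markers to at most 2.64 and 5.16 CPM.

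The sequences of the 5 most abundant star loci, each with its mature partner, are shown first because these 5 stars hold most of the star counts. They are written 5′ to 3′ as DNA letters, and capitals mark the seed.
chr5_14702 star: aGGCTTTTtcattctatcgt
chr5_14702 mature: tACTTGGAtgggagaccgcctg
chr17_32710 star: tATGAGGCcccgggttc
chr17_32710 mature: tCCCCGGCatctccact
chr24_41257 star: cCCGGGTCgggagtgggt
chr24_41257 mature: cCTGCTGCcttccttgg
chr7_18642 star: gAAAAGTTcgttcgggttttt
chr7_18642 mature: aAAACACGaacaaacttttcg
chr23_40239 star: cAGCCTTTcattcactgga
chr23_40239 mature: cCAGCGGGgaaggtggc

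From general knowledge, several of these do not read like miRNAs. The mature arm of chr5_14702 has the letters of a stretch of 5S ribosomal RNA. Both arms of chr17_32710 run along the T arm and the 3′ end of an alanine transfer RNA, and both arms of chr24_41257 read as the opposite strand of 18S ribosomal RNA. These likenesses were not tested, since no ribosomal or transfer RNA sequence was used here.

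Together the star loci held 193854 counts. A single locus, chr5_14702_star, held 37.8% of them, and the 10 most abundant held 70.9%. Most loci had almost none: 423 (11.0%) had no count in any library, 2764 had 1 to 9 counts over the 6 libraries, 541 had 10 to 99, 93 had at least 100 but under 1000, and 15 had 1000 or more. The median was 3 counts. A count in every library was found for 422 loci (11.0%), against 27.7% of the unnamed mature arms and 59.9% of the named star arms. The share with no count at all was 0.956% in the unnamed mature arms and 0.495% in the named star arms. Mean levels above 1 CPM were reached by 162 star loci, above 10 CPM by 25 and above 100 CPM by 4.

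**Figure D1:**
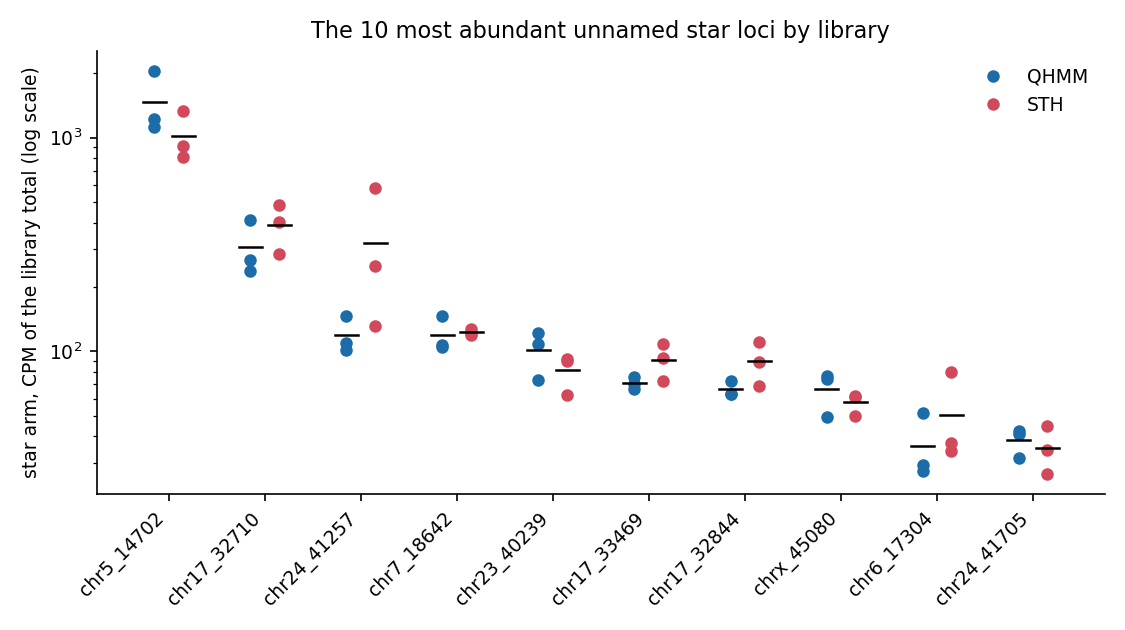
Level of the 10 most abundant unnamed star loci in each library, in CPM on a log axis, with a point for each QHMM and STH library and a line at the mean of each breed. The first locus lies at 809 to 2050 CPM, and the points of both breeds overlap at all 10 loci.

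The most abundant star, chr5_14702_star (20 nt), had 12525, 9023 and 20783 counts in QHMM against 8997, 7021 and 14960 in STH. QHMM replicate 3 was the highest library and the breeds overlapped. The levels were 1463 ± 511 CPM in QHMM and 1016 ± 273 CPM in STH (SD, n = 3 each), and the log2 fold change, QHMM over STH throughout, was 0.52 with a standard error of 0.28 (edgeR quasi-likelihood test, Benjamini-Hochberg adjusted p = 0.439). Its mature arm was counted less often, with 10713, 6196 and 12116 in QHMM and 5002, 4191 and 15506 in STH. The star therefore held 57.7% of the hairpin's counts, and it exceeded the mature arm in all libraries but STH replicate 3.

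The star of chr17_32710 (17 nt) had 2451, 2147 and 4193 counts in QHMM against 4773, 2485 and 4529 in STH. It held 55.9% of its hairpin, and the breeds overlapped. For chr24_41257_star (18 nt) the counts were 1047, 886 and 1485 in QHMM against 1297, 2173 and 6570 in STH. STH replicate 3 stood highest and the breeds overlapped at its lowest STH library. The log2 fold change of −1.44 (SE 0.49) was not called (edgeR adjusted p = 0.221), and without STH replicate 3 it was −0.72 (edgeR adjusted p = 0.492). It was called with no filter on low counts (edgeR adjusted p = 0.00259), by DESeq2 (adjusted p = 0.0496) and without STH replicate 1 (−1.83, edgeR adjusted p = 0.0182), and not in the other 10 alternatives. The star held 78.8% of this hairpin.

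The star of chr7_18642 (21 nt) had 1497, 867 and 1067 counts in QHMM against 1254, 1037 and 1372 in STH, which overlapped. Its mature arm had 10296, 7664 and 9214 counts in QHMM against 12423, 8024 and 12632 in STH. The star was thus the minor arm in each library, at 10.5% of the hairpin. In chr23_40239 (star of 19 nt) the order was the opposite: the star had 758, 871 and 1235 counts in QHMM against 891, 542 and 1036 in STH. The mature arm was counted at most 36 times in a library, and the star held 97.9%.

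Of the other 5 of the 10 most abundant, 2 are loci on chromosome 17 with 1 star sequence between them. chr17_33469_star had 686, 613 and 712 counts in QHMM against 1065, 804 and 821 in STH. chr17_32844_star had 647, 588 and 642 in QHMM against 1092, 777 and 777 in STH. In CPM, STH replicates 1 and 2 lay above all QHMM libraries at both loci and STH replicate 3 lay among them, and neither locus was called. The star and mature arms of these hairpins are shown because each is nearly the reverse complement of the other, with a run of 20 of the star's 21 bases that pairs exactly.
chr17_33469 star: aGGGCTCGctgagcctcatct
chr17_33469 mature: gATGAGGCtcagcgagccctg
chr17_32844 star: aGGGCTCGctgagcctcatct
chr17_32844 mature: gATGAGGCtcagcgagccctg
The arms were counted almost equally: the star held 50.8% of chr17_33469 and 48.2% of chr17_32844. How a read that matches both loci was counted is not given, so these counts may hold the same reads.

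The remaining 3 had a mature arm above the star. chrx_45080_star (22 nt, chromosome X) had 759, 397 and 781 counts in QHMM against 610, 434 and 690 in STH, or 11.0% of its hairpin. chr6_17304_star had 284, 236 and 522 in QHMM against 337, 323 and 906 in STH, or 36.7%. chr24_41705_star, whose partner carries the name miR-339-5p, had 434, 256 and 414 in QHMM against 439, 299 and 301 in STH. It held 3.36% of that hairpin. The breeds overlapped at all 3.

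The summed level of the star loci was 0.299, 0.277 and 0.410% of the library in QHMM and 0.309, 0.280 and 0.395% in STH. Replicate 3 was the highest and replicate 2 the lowest in both breeds. The means were 0.328% ± 0.0713 and 0.328% ± 0.0602 (SD, n = 3 each; two-sided exact permutation test p = 1). Libraries of 3 against 3 allow no p below 0.10. The single locus chr5_14702_star made up 40.8, 40.5 and 50.03% of the star counts in QHMM against 29.6, 28.9 and 33.5% in STH. Without it, the other star loci summed to 0.177, 0.165 and 0.205% in QHMM and 0.218, 0.199 and 0.263% in STH, means of 0.182% ± 0.0205 and 0.226% ± 0.0329. The breeds then overlapped by 1 pair of libraries (exact permutation p = 0.20).

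Fewer star loci were counted in QHMM than in STH. At least 1 count was found for 1501, 1286 and 1673 loci in QHMM and 1675, 1741 and 2218 in STH. The groups did not overlap, though QHMM replicate 3 and STH replicate 1 differed by 2 loci. The means were 1487 ± 194 and 1878 ± 296 (exact permutation p = 0.10). Thinned to 8062231 counts per library, the numbers were 1341, 1286 and 1479 in QHMM against 1512, 1677 and 1888 in STH, again without overlap (exact permutation p = 0.10). At 10 or more counts the difference was small, with 171, 124 and 181 loci in QHMM and 163, 150 and 202 in STH. The unnamed mature arms moved with this: a mean of 2060 were detected in QHMM and 2495 in STH, and they held 2.96% and 5.83% of the library (exact permutation p = 0.10 for each). A count in all 3 STH libraries and in no QHMM library was found for 68 star loci, and the reverse for 13. Over all rows of the table these patterns had shares of 1.57% and 0.287%.

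**Figure D2:**
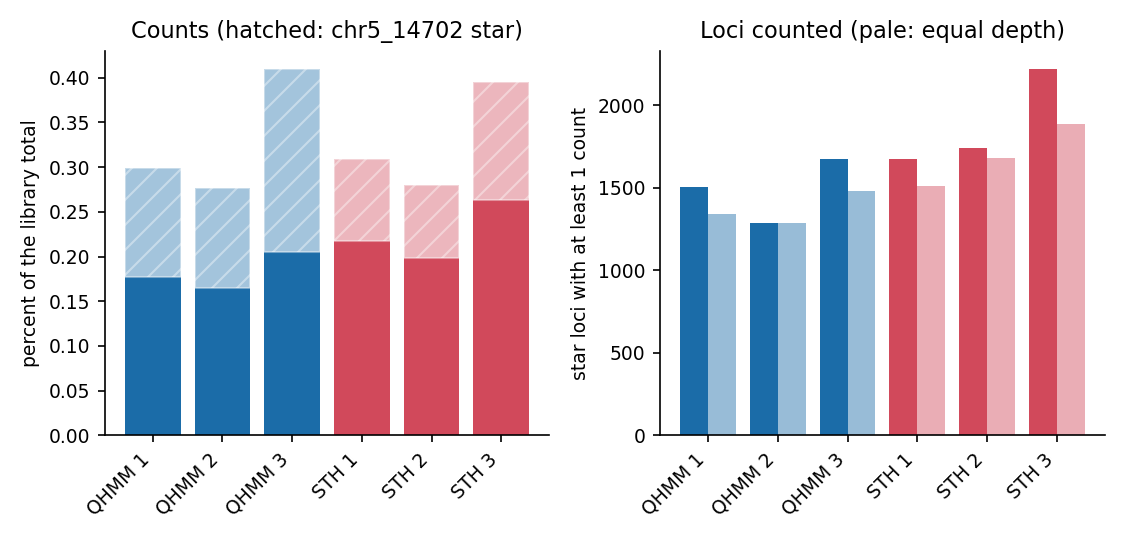
Left, percent of each library total held by unnamed star loci, with the hatched part for chr5_14702_star and the solid part for the other loci. Right, number of star loci with at least 1 count per library, solid as counted and pale after thinning to 8062231 counts. The percent overlaps between breeds, while the number is 1286 to 1673 in QHMM against 1675 to 2218 in STH.

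The star loci were 12 to 29 nt long, with quartiles of 17, 20 and 22 nt. The unnamed mature arms were 17 to 24 nt long, with quartiles of 17, 19 and 21 nt. The usual length of a Dicer product, here taken as 20 to 24 nt, was held by 1689 loci (44.0%), near the 44.5% of the unnamed mature arms, against 85.1% of the named star arms. Loci of this length carried 63.6% of the star counts, and 12.7% of them were found in every library. Loci of 17 to 19 nt, 1275 in number, carried 30.6% of the counts and 11.1% of them were found in every library. The 604 loci of 12 to 16 nt carried 4.19%, and 17.9% of them had no count, against 8.23% at 20 to 24 nt. The 268 loci of 25 to 29 nt carried 1.59%.

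**Figure D3:**
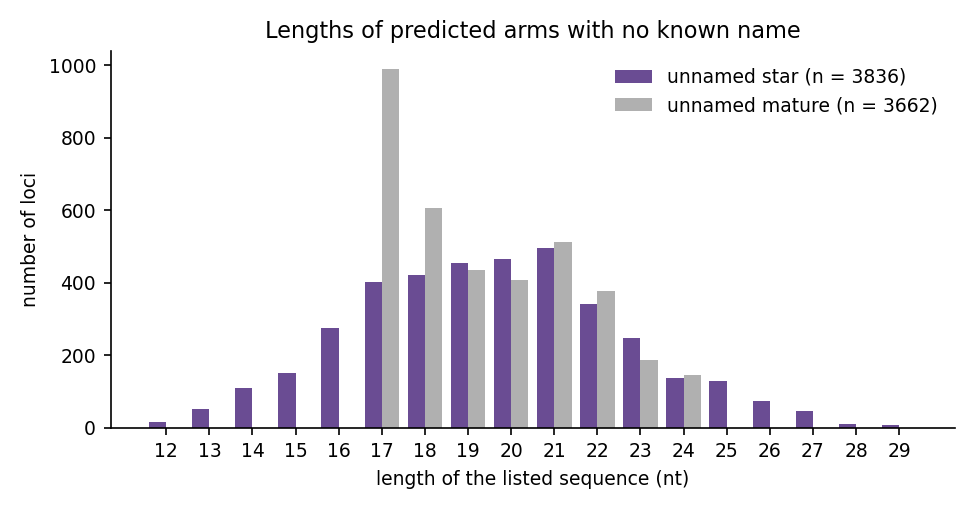
Number of unnamed star loci and of unnamed mature arms at each length in nt. The star loci spread from 12 to 29 nt, while the mature arms lie between 17 and 24 nt with their highest bar at 17.

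The first base was t in 28.9% of star loci, g in 26.9%, a in 22.4% and c in 21.7%. Named mature arms began with t in 45.7%, the 5′ base that Argonaute is known to favour, and named star arms in 13.9%. The median GC content of the star loci was 50.9%. Runs of 6 or more of 1 base were present in 127 loci (3.31%), against 3.796% of the unnamed mature arms. Of the 127, 60 were runs of t and 41 of g, and together they carried 5.02% of the star counts. Some rows repeat a sequence: 109 star rows shared 51 sequences, with up to 4 loci each, and 135 were identical to, within or around another row of the table. None of them was nested with a row of a known name.

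The star loci held 3036 different seeds. A seed of a known sheep miRNA was carried by 35 loci (0.912%), against 1.202% of the unnamed mature arms, and a seed of any known row by 920 (23.98%), against 24.99%. The most abundant of the 35 was chr21_38878_star with 79 counts and the seed of miR-134-5p, followed by chr2_4976_star with 48 counts and the seed of miR-382-5p. Both of these miRNAs are known from the imprinted DLK1-DIO3 cluster, but the 2 star loci lie on chromosomes 21 and 2, and only the seed was compared.

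The seed shared by most star loci was AAAAGTT. It was carried by 14 loci on 11 chromosomes (0.365% of the members), while the next, TTTTTTT, was carried by 8. No known row of the table had it, and 7 unnamed mature arms did. Cattle and other ruminants are known to carry a large family, miR-2284 and miR-2285, with arms of this kind, but no cattle sequence was used here. The 14 loci had 7478 counts, of which chr7_18642_star held all but 384. The second most abundant, chr18_34405_star, had 107 counts against 205 of its mature arm and is not shown. The 5 shown are the most abundant outside chromosome 18, printed to let the shared start be compared with the differing 3′ parts.
chr7_18642 star: gAAAAGTTcgttcgggttttt
chrx_45033 star: aAAAAGTTtgtttgggttttt
chrx_45974 star: gAAAAGTTtgttttgagttttcc
chr21_38969 star: aAAAAGTTcgttcaggttttc
chr1_2080 star: gAAAAGTTcgtttgggtttt
Within this group the star lay below the mature arm in 9 loci and above it in 5, and 9 were counted in every library. chrx_45033_star had 59 counts against 46 of its mature arm, chrx_45974_star 38 against 105, chr21_38969_star 37 against 36 and chr1_2080_star 31 against 138.

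Every star locus had a partner with the same chromosome and number, which was an unnamed mature arm in 3640 hairpins and a named one in 196. The rule that names the arms usually calls the arm with more reads mature, so a star share below 50% is no finding. Of the hairpins, 1395 had at least 20 counts over both arms and all libraries. In these the star held a median of 8.11% of the counts, with quartiles of 1.27 and 36.4%. In single libraries the median was 2.04, 0.0648 and 3.85% in QHMM against 3.45, 5.46 and 8.93% in STH, lowest in QHMM replicate 2 and highest in STH replicate 3. With the counts of all these hairpins pooled, the order of the breeds was the opposite. The star arms then held 6.16, 7.12 and 8.89% in QHMM against 3.77, 3.91 and 5.34% in STH, without overlap, and this was not tested. Over all rows the star loci held a mean of 0.328% of the library in both breeds. The unnamed mature arms held 2.96% in QHMM and 5.83% in STH, so the higher pooled share in QHMM does not mean more star counts there. The share of a hairpin over all libraries was below 10% in 744 hairpins (53.3%) and above 90% in 63, and it had no count in 102 (7.31%). The star outnumbered the mature arm in 278 hairpins (19.9%). In the 166 hairpins with a known name on both arms, the median was 5.75% with quartiles of 1.80 and 21.2%, no star was without counts, and the star was the larger arm in 12 (7.23%).

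The share differed with the partner. With an unnamed mature arm the median was 9.98% and the star was larger in 273 hairpins (21.9%), while with a named mature arm the median was 0.822% and the star was larger in 5 (3.401%). Where the star was counted in every library, in 394 hairpins, it held a median of 56.0% and was the larger arm in 216. This choice uses the star counts and so raises the share by itself. The same choice gave a median of 7.59% in 118 named hairpins. Star and mature totals had a Spearman correlation of −0.253 over the 1395 hairpins and of 0.650 over the 166 named ones. Both are descriptions across hairpins that share the same 6 libraries, and the minimum on the sum of the arms bears on the first. Over all 3836 hairpins the correlation was 0.211.

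**Figure D4:**
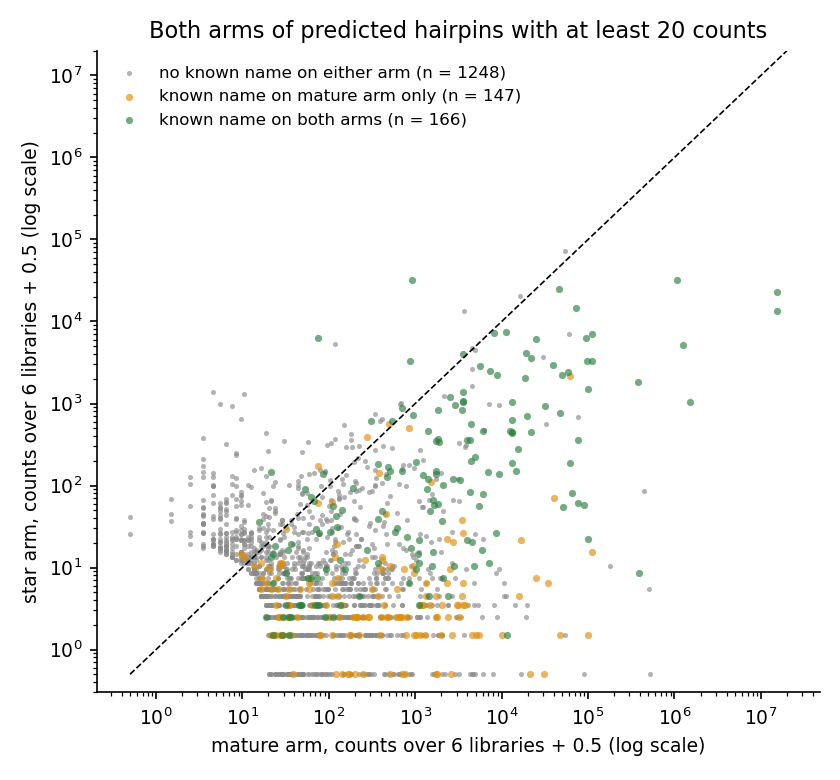
Counts of the star arm against the mature arm, each summed over the 6 libraries with 0.5 added, on log axes, for hairpins with at least 20 counts over both arms. Colours mark hairpins with no known name (1248), with a name on the mature arm only (147) and with a name on both arms (166), and the dashed line marks equal counts. The star lies above the line in 273, 5 and 12 of them.

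Whether the stars listed beside named mature arms are the known opposite arms of those miRNAs was not tested. At the partner named miR-574-3p, chr4_13243_star had 69 counts and the mature arm 40175, a star share of 0.171%. For miR-1839-5p, chr9_21907_star had 498 counts against 843, or 37.1%. At chrx_45615, whose mature arm is named miR-500a-3p, the star had 142 counts against 384. The star exceeded a named mature arm in 5 hairpins with at least 20 counts. Among them were chr1_677 (miR-3141), with 563 against 498 counts, chr2_4270 (miR-324-3p), with 174 against 74, and chr2_5900 (miR-339-5p), with 385 against 276. At the other hairpin with the name miR-339-5p, chr24_41705, the star held 3.36%. The mature arms of these 2 hairpins are not 1 sequence: their seeds are CCCTGTC at chr24_41705 and CCTTGTC at chr2_5900. The mature counts were 61636 and 276, so the 2 star shares do not belong to the same mature sequence.

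As a measure of pairing, the energy of the duplex that each pair of arms can form was computed. Its median was −14.8 kcal/mol in the 1395 hairpins and −21.4 in the named ones, where a lower value is a more stable duplex. At chr4_13243 the energy was −12.7, at chr2_5900 −14.4 and at chr24_41705 −22.4. With both arms at 20 to 24 nt, the medians were −20.95 over 420 hairpins and −21.8 over 139. A run of 16 or more bases that pair exactly between the arms was found in 37 of the 3836 hairpins. With at least 20 counts it was found in 13 of the 1395 (0.932%) and in none of the 166 named ones, too few to tell such small shares apart. The longest, 21 bases, were at chr1_46, with 48 star and 5 mature counts, and at chr1_1941, with 3 and 48. From general knowledge, exact complements between small RNAs are also seen where both strands of 1 site are transcribed, and the strand of each row was not used here.

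At the end of the range where the mature arm was scarce stood the 5 hairpins with the highest star share. chr11_24373_star had 2, 0 and 3 counts in QHMM against 6, 11 and 19 in STH, and chr3_12455_star had 8, 4 and 6 in QHMM against 4, 1 and 2 in STH. Neither mature arm had a count, so both shares were 100%. chr17_33629_star, one of the loci called between the breeds, held 99.7%. chr16_32149_star (15 nt) had 167, 180 and 166 counts in QHMM against 135, 99 and 229 in STH, and held 99.5%. chr2_8085_star (25 nt) had 173, 151 and 216 in QHMM against 141, 105 and 147 in STH, and held 99.3%. In CPM its QHMM libraries all lay above its STH libraries, but its log2 fold change of 0.54 was not called (edgeR adjusted p = 0.452). The sequences below are shown because their lengths of 15, 25, 19 and 18 nt, in the order printed, lie outside the usual 20 to 24 nt.
chr16_32149 star: tCATTTGTaaactgt
chr2_8085 star: gTCCCGGGgccccggggggccggga
chr11_24373 star: gGGTTCTGggcgtgcgtgg
chr3_12455 star: cATGACTAttattcttga

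Between the breeds, 165 star loci had enough counts to be tested, among 1274 names in all. The test called 28 of all names (2.2%), and 3 of the star loci, a share of 1.82% that is near this background. One was higher in QHMM, where 0.314% of all names were called, and 2 were higher in STH, where 1.88% were called. At an unadjusted p under 0.05 there were 26 of the 165 star loci and 174 of the 1274 names. The median log2 fold change of the tested star loci was 0.11, and of all names 0.031. The libraries of the breeds did not overlap in CPM at 35 star loci (21.2%), against 17.2% of all names tested. Of the 35, QHMM was the higher breed at 17, where the share over all names was 8.63%, and STH at 18, where it was 8.56%.

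The 3 called loci and their partners are printed because the breed difference rests on them.
chr17_33629 star: tACCCCCTgtctacagtcgaa
chr17_33629 mature: gAGACACAgggaagtat
chr14_29832 star: gGAGGCGGgtgtgaggccggc
chr14_29832 mature: cCAGCCCCtcacccgcctctg
chr9_21783 star: gGGAGCGCcggcag
chr9_21783 mature: cAACGTGCagactcccc
The first of them had the smallest adjusted p. chr17_33629_star had 40, 30 and 38 counts in QHMM against 672, 295 and 293 in STH. The breeds lay far apart. This was 3.79 ± 0.0922 CPM in QHMM and 42.7 ± 22.4 CPM in STH (SD, n = 3 each), a log2 fold change of −3.48 with a standard error of 0.39 (edgeR adjusted p = 0.000158). Summed over the libraries of each breed, the level in STH was 11.1 times that in QHMM (95% interval 9.15 to 13.7, for counting error only). The call held in all 13 alternatives, with log2 fold changes of −3.72 to −3.05. Its mature arm had no count in QHMM and 0, 2 and 2 in STH.

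The second, chr14_29832_star, was counted 1, 2 and 4 times in QHMM and 14, 16 and 37 times in STH, without overlap. The levels were 0.247 ± 0.149 and 2.18 ± 0.974 CPM, and the log2 fold change was −3.12 (SE 0.60, edgeR adjusted p = 0.0147). The call was lost without QHMM replicate 2, without QHMM replicate 3 and without STH replicate 3. The mature arm had at most 4 counts in a library. The third, chr9_21783_star, has 14 nt and was higher in QHMM, with 37, 20 and 24 counts against 7, 6 and 7 in STH. The levels were 2.82 ± 0.682 and 0.674 ± 0.0475 CPM (log2 fold change 2.03, SE 0.43, edgeR adjusted p = 0.0253). This call was lost when any 1 library was left out.

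Below the filter on low counts, chr18_34997_star had no count in QHMM and 9, 20 and 35 in STH. It was at least 16.1-fold higher in STH by the lower 95% counting limit of the ratio, and 20.4-fold higher with the QHMM group set to a floor of 3 counts. It was picked after its values were seen. Its mature arm had 1, 0 and 1 counts in QHMM against 1, 3 and 15 in STH.

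Whether the arms of a hairpin differed in their breed difference was tested in 1573 hairpins, 1395 of them with an unnamed star. One was called (0.0636%), and it was a hairpin with an unnamed star. At an unadjusted p under 0.05 there were 74 of the 1395 and 87 of all. The called hairpin was chr19_36378, whose arms are shown for that reason.
chr19_36378 star: aAGTCGCTcagtcgt
chr19_36378 mature: cGACTCTTagcgatgga
Its star (15 nt) had 72, 40 and 60 counts in QHMM against 99, 101 and 188 in STH. The mature arm had 7125, 4282 and 7332 counts in QHMM against 4025, 3181 and 6255 in STH. The star thus held 1.0004, 0.925 and 0.812% of the hairpin in QHMM and 2.40, 3.08 and 2.92% in STH, without overlap. The log2 ratio of star over mature was lower in QHMM by a difference of −1.64 (SE 0.38, edgeR adjusted p = 0.0202). Neither arm alone was called, with log2 fold changes of −1.12 for the star (edgeR adjusted p = 0.108) and 0.54 for the mature arm (0.359). The call was lost in 6 of 9 alternatives, with QHMM replicate 3 and each STH replicate left out among them. The difference stayed at −1.64 with minimums of 10 and 100 counts, at edgeR adjusted p of 0.0548 and 0.00324. Among hairpins without a known name it was also −1.64 (edgeR adjusted p = 0.172). The error of this test was largely pooled over hairpins, so the call depends on which other hairpins were fitted. From general knowledge, the mature arm is close to a piece of 5.8S ribosomal RNA but not identical to it. This likeness was not tested, and the star arm was not compared with any such RNA.

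**Figure D5:**
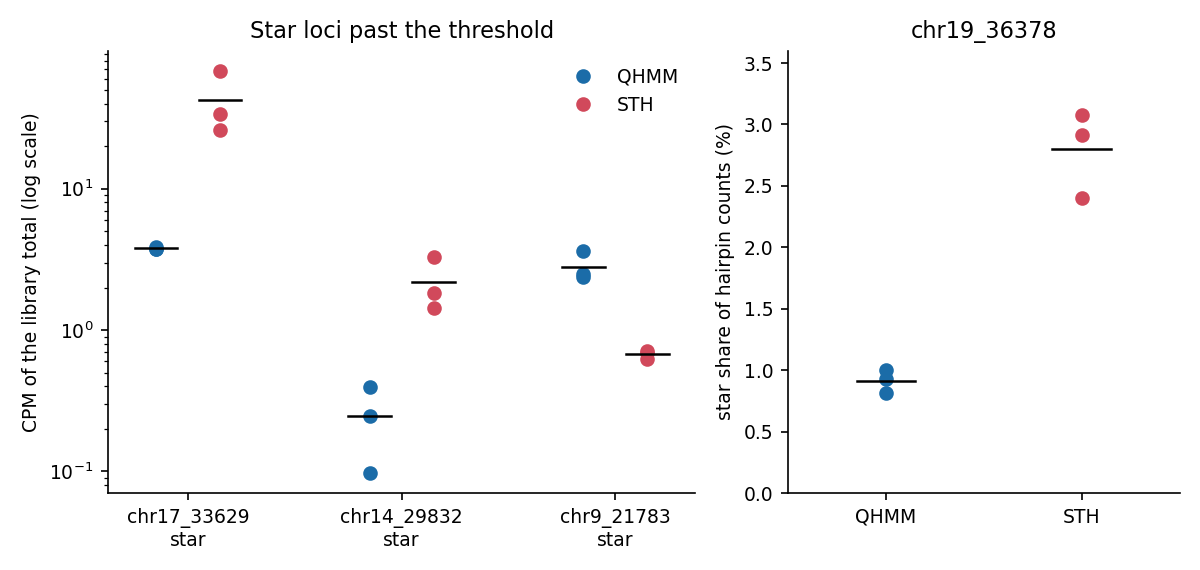
Left, level in CPM on a log axis of the 3 star loci called between the breeds, with a point for each library and a line at the mean of each breed. Right, star counts of chr19_36378 as percent of its hairpin. The breeds do not overlap in any of the 4, and QHMM lies higher only at chr9_21783_star.

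Counts in 1 or 2 libraries could set a locus apart. Of 164 star loci with at least 60 counts, 2 had over 50% of them in 1 library. These were chr21_39123_star, with 202, 8 and 13 counts in QHMM against 87, 14 and 21 in STH, and chr18_34997_star above, with 54.7% in STH replicate 3. Replicate 1 of both breeds was the highest at chr21_39123_star. At chr22_39368_star replicate 2 of both breeds was the highest, with 3, 174 and 16 counts in QHMM against 6, 175 and 9 in STH. At chr1_1768_star the QHMM libraries alone ranged from 21 to 292 counts (179, 292 and 21), against 18, 64 and 75 in STH. chr21_39123_star, chr22_39368_star and chr1_1768_star were picked after their values were seen.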

How the data were processed

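Small RNA from longissimus muscle was size selected and sequenced with single-end Ion PI reads in 6 libraries, 3 per breed. The authors deposited a raw whole-number read count for each listed sequence. Per the submitters' processing notes, the build was Oar_v3.1, and DESeq is also named there. Which aligner and hairpin caller were used, how reads that match several rows were counted, and whether a star was observed or read from the fold is not given in the sources used here. Rows may thus share reads.

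The members and lists were chosen with earlier results of these data known. CPM are counts per 1000000 counts over all rows of the library. The breed test was the quasi-likelihood test of edgeR 4.0.16, run in R 4.3.3 (robust fit, TMM, filterByExpr, 1 row per name, Benjamini-Hochberg adjusted p under 0.05) over 1274 names. Arms were compared in 12 columns by the interaction of arm and breed, with each library as a block. Single values per library were compared with exact permutation tests. Duplex energies come from RNAduplex 2.7.2, other values from Python 3.11.15. DESeq2 1.42.0, other filters and factors, and each library left out were alternatives. The scripts were tested on simulated data. No libraries of a breed were duplicates, since their chi-square was at least 75.7 per degree of freedom. The named loci are the 10 most abundant, all called, the 5 with the highest star share, the hairpins called by arm, and their partners, and the others were picked after their values were seen. A rule for loci nested with a known name found none.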

Additional observations from a re-analysis of the deposited data

Results flagged for a closer look

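The hairpin chr19_36378 met the criterion of a difference between breeds, because the test of arm by breed passed its threshold: the log2 ratio of star over mature was lower in QHMM, a difference of −1.64. The star held 0.812 to 1.0004% of the hairpin in QHMM and 2.40 to 3.08% in STH. It was the 1 call among 1573 hairpins. The call was lost in 6 of 9 alternatives, and neither arm alone was called between the breeds.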

How the results depend on the processing

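Among star loci, 3 were called between the breeds, and also with RLE or upper-quartile factors, with all rows kept and with the replicate block. The count was 9 with no filter on low counts, 7 with DESeq2, 1 where each library had to hold 10 counts or more, and 1 to 7 with 1 library left out (1 without STH replicate 3, 7 without STH replicate 1). The 3 calls were among the 9 and the 7. In all leave-outs no star locus was called higher in QHMM. The labels give the breeds the same replicate numbers, and the deviations of same-numbered libraries correlated at 0.061, 0.239 and 0.119. Every library had its highest correlation with the library of its number, which is not part of the design. The deviations were taken from the mean of each breed, so these correlations are tied to each other and cannot show a pairing. The replicate block called the same 3 loci.

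The breed difference in the share of the library, 0.000333 points, turned to −0.0443 without chr5_14702_star, an alternative chosen after seeing the data, and ranged from −0.0403 to 0.0340 with 1 library left out (below 0 without QHMM replicate 3, STH replicate 1 or STH replicate 2). As a share of unnamed predicted loci, a total that includes the mature arms that were higher in STH, it was 4.68 points. The median star share of a hairpin, 8.11%, was 21.4% with a minimum of 10 counts, 1.68% with 100, 9.98% with an unnamed mature arm only, and 5.24 to 7.14% with 1 library left out. The call by arm became 0 with a minimum of 10 counts, 2 with 100, 0 among hairpins without a known name, and 0 to 2 with 1 library left out. The difference in detected loci, −391, was −13.0 at 10 or more counts, and −493 to −221 with 1 library left out.

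The 265 alternative values cover the breed difference at 20 named loci and the arm difference of chr19_36378. Of these values, 239 kept their direction and side of the threshold and 8 changed sign: chr7_18642_star to 0.027 with no filter and 0.016 without QHMM replicate 3 (lowest leave-out −0.16), chr24_41705_star to −0.055 without STH replicate 3 (highest 0.25), chr16_32149_star to −0.0097 without QHMM replicate 2 (highest 0.58), chr21_39123_star to −1.76 without QHMM replicate 1 (highest 1.89), and chr22_39368_star to −3.11, −0.35 and −0.34 without QHMM replicate 2, STH replicate 1 or STH replicate 3 (highest 3.66). The causes were not tested. Counts of 1 to 9 in most loci limit what could be detected.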

Other observations

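The hairpin chr8_20184, picked after its values were seen, had 114, 85 and 169 star counts in QHMM against 183, 198 and 244 in STH, and 1125, 670 and 1389 mature counts in QHMM against 1157, 1136 and 1741 in STH. In CPM the STH libraries of the star all lay above those of QHMM, a pattern seen at 8.56% of all names tested. The star's log2 fold change of −0.73 was not called (edgeR adjusted p = 0.334). From general knowledge both arms read like parts of 5S ribosomal RNA, the RNA that the mature arm of chr5_14702 also resembles, and this was not tested.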
